A study of Mus musculus with 50 samples.

Results

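Gastrocnemius muscle of 34 male mice of the inbred strain C57BL/6JRj, all wild type, was compared between 2 phases of late life. The sarcopenic phase held the mice of 26 months (n = 9) and 28 months (n = 9), and the early sarcopenic phase held those of 22 months (n = 8) and 24 months (n = 8). The 34 mice were taken from a series of 50 by the age in the sample labels, and the other 16, of 8 and 18 months, had been brought onto the purified diet in another way. All 34 mice were put on the AIN93M diet when they were 18 to 19 months old and stayed on it to the end, so the time on the diet grew with age and cannot be told apart from it. Mice were caged singly, and animals with overt illness or tumors at dissection had been left out by the authors, so that each age stands for the mice that remained. Each mouse gave 1 library of stranded mRNA. Differences are given as log2 fold changes, sarcopenic minus early sarcopenic, with the standard error of the fit, and levels as CPM, counts scaled to library size, or as TPM, which are also scaled to transcript length. A gene was called when its Benjamini-Hochberg adjusted p from the edgeR quasi-likelihood test over all 12412 tested genes was below 0.01.

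Sarcopenia is the loss of muscle mass and strength with age. Muscle mass depends on the balance of protein synthesis, which mTORC1 promotes, and protein breakdown, in which FOXO transcription factors raise ubiquitin ligases and autophagy genes. Fibers that lose their nerve also turn on a set of genes that innervated fibers keep low, among them subunits of the acetylcholine receptor, and the fibers are embedded in a collagen-rich matrix that fibroblasts and tendon cells maintain.

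The libraries of both phases were of like depth. Total counts ranged from 13607229 to 20093471 in the early sarcopenic mice and from 13920425 to 18945656 in the sarcopenic mice (two-sided permutation test, p = 0.483), and the share of counts taken by the 50 highest genes did not pass the test either (p = 0.56). Within each age, no library was a copy of another, since even the closest pair of the same age differed by 6.36 times the counting noise (chi-square per gene). The tissue label held in every mouse: genes that define muscle fibers, such as Ckm, Acta1 and Ttn, summed to at least 1.27e+05 TPM in each library. The mouse numbered 28 months replicate 2 stood apart from the other libraries. The 50 highest genes took 30.4% of its counts, beside 36.9% to 43.8% in the other libraries. That mouse also had the highest summed TPM in 21 of 48 gene lists. How far the lower share bears on those sums was not tested. Some of the results that this mouse moved are also given without it.

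Between the phases, 3238 of 12412 genes were called (26.1%), 1847 higher (14.9%) and 1391 lower (11.2%) in the sarcopenic mice. The changes were small for most genes. The median size among called genes was 0.36 on the log2 scale, 118 genes rose and 31 fell by 2-fold or more, and 98.8% of tested genes differed by less than 2-fold. No gene separated the phases fully: the 18 sarcopenic and the 16 early sarcopenic mice overlapped in CPM for all 12412 genes (0% without overlap). The number of calls lay between 2677 and 3905 when 1 mouse was left out. With upper-quartile scaling, which shifted the median of all genes by -0.04, 3193 genes were called, 2844 of them among the 3238. Of the 3193, 1453 were higher and 1740 lower, so that the share of higher calls was 45.5% in place of 57.0%. Among the 3238 genes, 0 changed sign with that scaling.

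In a PCA of log2(TPM + 1) over the 34 mice, PC1 held 39.9% of the variance and PC2 7.23%. The mean PC1 coordinate was 13.04 ± 20.2 (SD, n = 18) in the sarcopenic mice and -14.7 ± 6.96 (SD, n = 16) in the early sarcopenic mice, a difference of 27.7 (two-sided permutation test, 100000 permutations, p = 2e-05). By age the means were -18.7, -10.7, 6.92 and 19.2 from 22 to 28 months. The phases overlapped: 11 of 18 sarcopenic mice lay above the highest early sarcopenic mouse, and 7 lay within the early range.

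**Figure D1:**
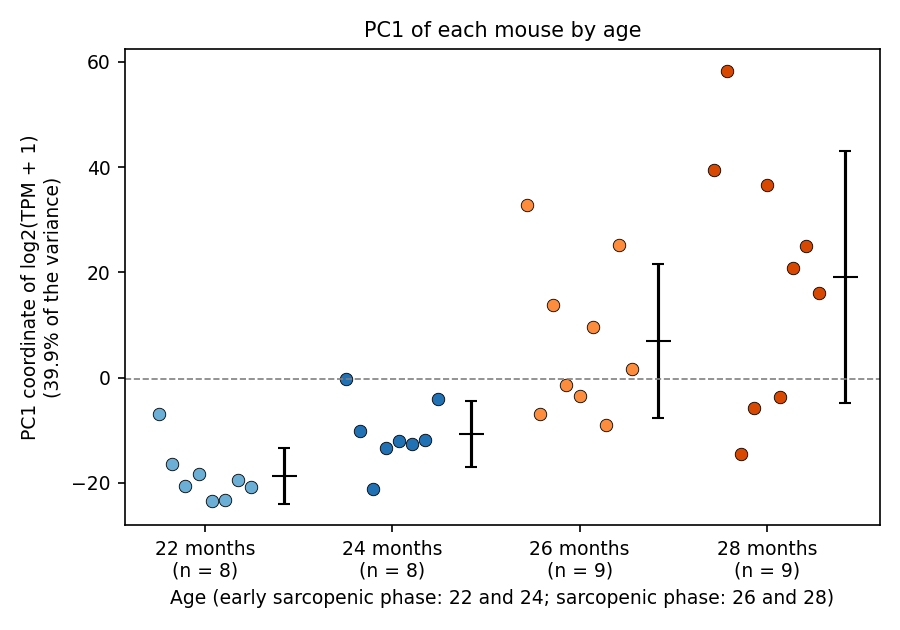
PC1 coordinate of each of the 34 mice (y axis, from log2(TPM + 1)) by age in months (x axis), with a bar at the mean of each age, the SD as error bar and a dashed line at the highest early sarcopenic mouse. The mice of 22 and 24 months lie close together, none above -0.299, whereas those of 26 and 28 months spread from -14.6 to 58.3.

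The widest increases included both metallothioneins. Mt1 and Mt2 encode small cysteine-rich proteins that bind zinc and copper, and metal ions, glucocorticoids and oxidative stress are known to raise them. Mt1 was at 7.12 to 29.2 CPM with a median of 14.4 in the early sarcopenic mice and at 9.18 to 543 CPM with a median of 47.9 in the sarcopenic mice. For 16 of 18 sarcopenic mice the level was above every early sarcopenic mouse, and the 2 exceptions, 28 months replicates 3 and 4 at 9.18 and 9.90 CPM, lay below the early median. Mt1 rose by 2.51 ± 0.38 on the log2 scale (edgeR, adjusted p = 5.22e-05), and by 2.10 without 28 months replicate 2. Mt2 was at 4.70 to 32.4 CPM (median 11.7) in the early and at 7.84 to 697 CPM (median 48.4) in the sarcopenic mice, with a log2 fold change of 2.89 ± 0.42 (adjusted p = 5.12e-05) and of 2.36 without 28 months replicate 2. Age medians of Mt1 were 13.2, 16.5, 49.4 and 46.5 CPM at 22, 24, 26 and 28 months. The brain form Mt3 had a log2 fold change of -0.01 and was not called. Mt1 and Mt2 lie next to each other on chromosome 8 (GRCm38, 94179082 to 94180327 and 94172664 to 94173568) and share 0 words of 31 bases in their transcripts, so reads that span such words can be told apart between the 2 genes.

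Their promoters are shown because the 2 genes moved together and are known targets of a metal-responsive factor. The 250 bases before each start site, from RefSeq on GRCm38.p6, are given 5′ to 3′ on the strand of the gene (Mt1 chr8:94178839-94179088, plus strand, and Mt2 chr8:94172368-94172617, plus strand), with matches to TGCACNC or TGCGCNC, the core letters of metal response elements, on either strand in capitals.
Mt1: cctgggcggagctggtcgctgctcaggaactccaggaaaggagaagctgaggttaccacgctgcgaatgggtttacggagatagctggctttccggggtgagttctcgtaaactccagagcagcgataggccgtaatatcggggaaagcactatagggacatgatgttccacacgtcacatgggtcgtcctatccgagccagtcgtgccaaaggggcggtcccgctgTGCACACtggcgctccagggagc
Mt2: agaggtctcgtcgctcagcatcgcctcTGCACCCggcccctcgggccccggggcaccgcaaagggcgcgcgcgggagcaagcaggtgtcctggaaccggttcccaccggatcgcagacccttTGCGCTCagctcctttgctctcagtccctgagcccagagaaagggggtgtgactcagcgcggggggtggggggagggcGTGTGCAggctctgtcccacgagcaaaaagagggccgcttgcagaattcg
In these windows Mt1 held 1 match, starting 23 bases before the start site, and Mt2 held 3, at 223, 128 and 50 bases before it. Each window lies before 1 annotated start. Mt1 has 3 protein-coding transcripts and Mt2 has 2, and bases outside the windows were not searched. The counts therefore do not give the number of such elements in either promoter and do not rank the 2 genes. Such letters are common: 21.4% of 32851 promoter windows of this length held at least 1 match and 1.26% held 3 or more. Of the 12412 tested genes 9643 had a window, and 34.3% of these held the letters, as did 521 of 1468 genes called higher (35.5%) and 361 of 1062 called lower.

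Foxo1 and several ubiquitin ligases of muscle atrophy rose. Foxo1, one of the FOXO transcription factors, was at 18.8 to 67.2 CPM (median 39.3) in the early sarcopenic mice and at 37.0 to 324 CPM (median 133) in the sarcopenic mice, and 15 of 18 sarcopenic mice were above all early ones. Its log2 fold change was 1.80 ± 0.25 (adjusted p = 5.12e-05). Trim63, which encodes the ubiquitin ligase MuRF1, was at 51.5 to 175 CPM (median 100.4) in the early and at 65.6 to 1072 CPM (median 294) in the sarcopenic mice. Its groups overlapped in 4 sarcopenic mice, and the log2 fold change was 1.93 ± 0.29 (adjusted p = 5.22e-05). Of 13 tested ligases linked to atrophy, 6 were called higher and 2 lower, with a median log2 fold change of 0.18 beside -0.00 over all genes. Fbxo32 (atrogin-1) rose by 1.25 ± 0.25, Cblb, a ligase of insulin signaling, by 0.96 ± 0.17, Fbxo31 by 0.61, Fbxo30 by 0.54 and Nedd4 by 0.24. Trim32 and Stub1 were lower, with log2 fold changes of -0.20 and -0.21. The autophagy list had 9 genes called higher and 1 lower of 20 (median 0.14): Gabarapl1 rose by 0.70, Bnip3, a mitophagy receptor, by 0.64, Ulk1, the initiating kinase, by 0.54 and Map1lc3b by 0.51, whereas Atg12 was lower at -0.21.

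The Trim63 promoter is shown for its FOXO letters. Of the 250 bases before the RefSeq start (GRCm38.p6, chr4:134314870-134315119, plus strand), capitals mark the match to GTAAACA, the core letters bound by FOXO factors, which lay on the reverse strand and is therefore read as its complement.
Trim63: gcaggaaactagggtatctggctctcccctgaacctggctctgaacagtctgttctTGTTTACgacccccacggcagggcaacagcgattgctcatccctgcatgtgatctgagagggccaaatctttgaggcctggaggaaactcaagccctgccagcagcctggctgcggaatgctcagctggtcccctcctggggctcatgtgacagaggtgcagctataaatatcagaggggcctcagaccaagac
The match began 194 bases before the start site. The same letters stood in 3.17% of all promoter windows, in 2.70% of tested genes with a window, in 2.59% of those called higher and in 2.45% of those called lower.

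Sesn1 and Ddit4, which encode restrainers of mTORC1, were among the largest increases. Sesn1, a sestrin, was at 19.1 to 52.0 CPM (median 33.03) in the early and at 26.0 to 517 CPM (median 81.5) in the sarcopenic mice, a log2 fold change of 2.17 ± 0.35 (adjusted p = 7.62e-05). Its age medians were 28.6, 36.1, 56.1 and 175 CPM. Ddit4, whose product is called REDD1, was at 6.67 to 130.0 CPM in the early and at 19.7 to 626 CPM in the sarcopenic mice, with 13 of 18 above all early mice and a log2 fold change of 2.09 ± 0.36. The gene listed as 8430408G22Rik, named Depp1 in RefSeq and known as a FOXO target, rose by 2.30 ± 0.40, and Arrdc3, an arrestin-domain adaptor of receptor trafficking, by 2.06 ± 0.32. Fkbp5, a co-chaperone of the glucocorticoid receptor that glucocorticoids raise, was at 35.1 to 126 CPM in the early and at 67.7 to 512 CPM in the sarcopenic mice. Every sarcopenic mouse was above the early median of 60.9 CPM, and the log2 fold change was 1.73 ± 0.24 (adjusted p = 4.41e-05). Pdk4, which holds back glucose oxidation, rose by 1.14 ± 0.23.

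The smallest p values belonged to Glul and Cacna1i. Glul, glutamine synthetase, was at 187 to 958 CPM (median 468) in the early and at 515 to 2707 CPM (median 1405) in the sarcopenic mice. Its age medians were 273, 638, 1360.5 and 1826 CPM, 14 of 18 sarcopenic mice were above all early ones, and the log2 fold change was 1.69 ± 0.20 (adjusted p = 9.67e-06). Cacna1i, a T-type calcium channel, was low at 1.10 to 5.19 CPM in the early and 3.73 to 21.4 CPM in the sarcopenic mice, 17 of which were above all early ones. It had a log2 fold change of 1.71 ± 0.21 (adjusted p = 9.67e-06). Egln3, an oxygen-sensing prolyl hydroxylase, rose by 1.51 ± 0.20 (adjusted p = 2.01e-05), with age medians of 46.2, 60.1, 109 and 222 CPM. Arhgap26, a GTPase-activating protein, rose by 2.92 ± 0.45, from 3.85 to 28.6 CPM in the early mice to 9.28 to 388 CPM in the sarcopenic mice. The largest fold change of a gene with a mean of at least 5 CPM was that of Cxcl13, a chemokine that attracts B cells. It was at 0.829 to 8.73 CPM (median 1.45) in the early and at 1.16 to 149 CPM (median 13.2) in the sarcopenic mice, with 11 of 18 above all early mice and a log2 fold change of 3.68 ± 0.56 (adjusted p = 5.41e-05). Nr4a3, an orphan nuclear receptor, rose by 1.99 ± 0.41. Serpina3n, a secreted protease inhibitor, rose by 2.13 ± 0.39, and by 1.49 without 28 months replicate 2, in which it reached 269.7 CPM.

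**Figure D2:**
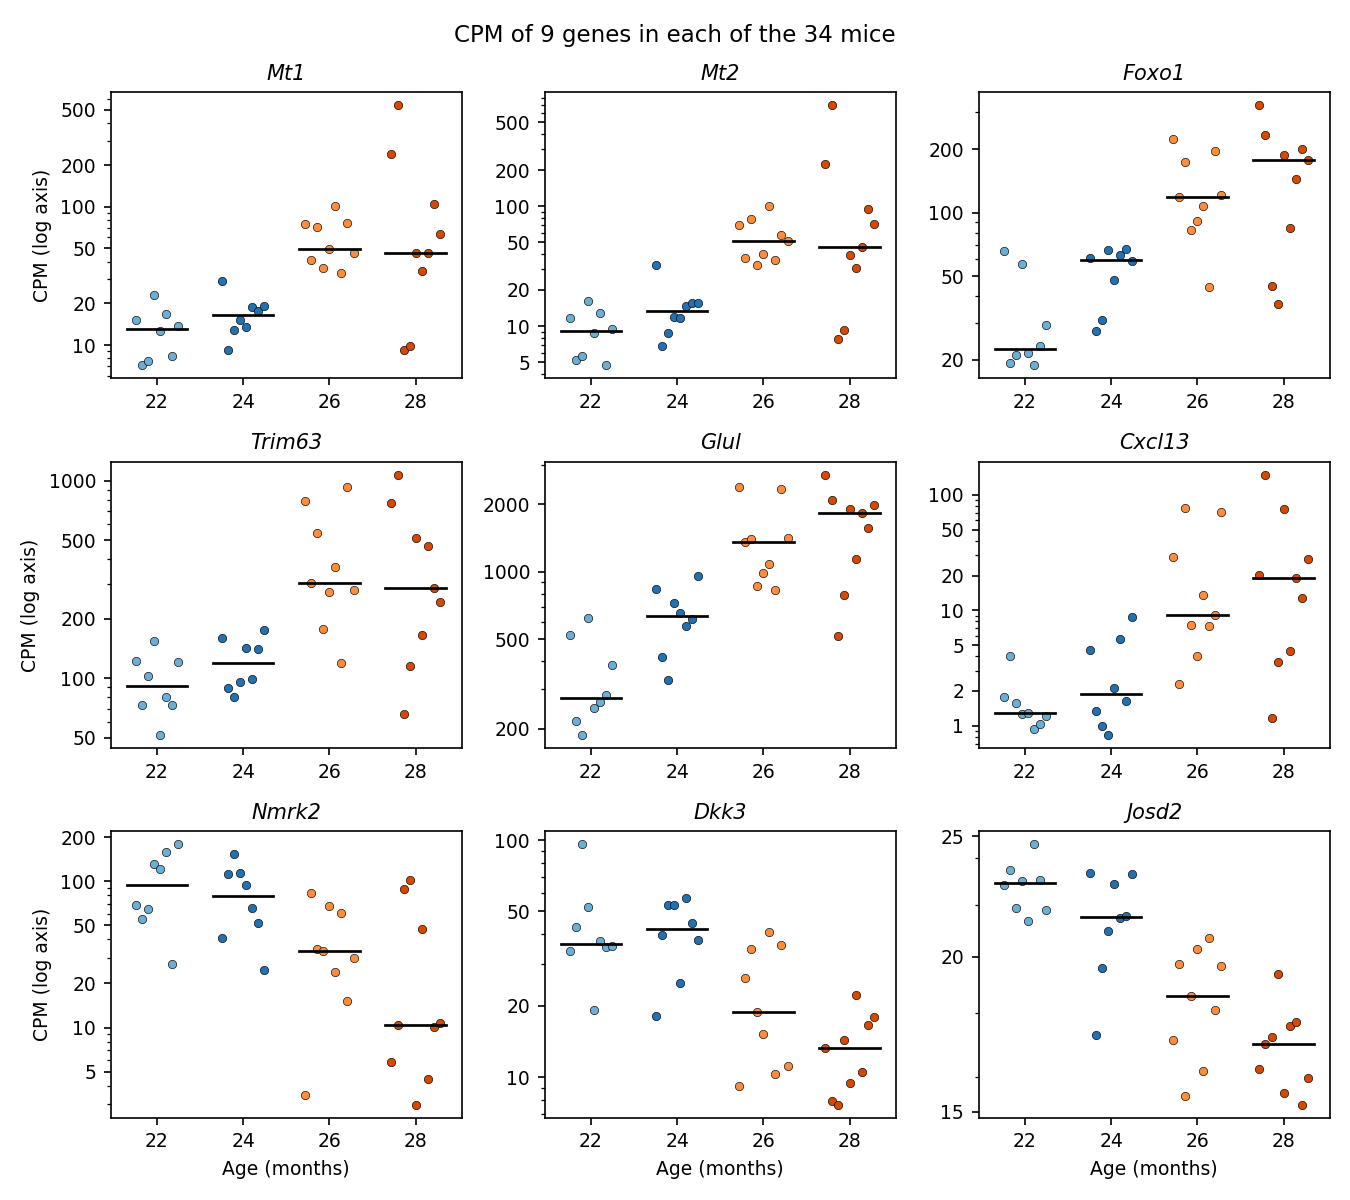
CPM of 9 genes in each of the 34 mice (y axis, log scale) by age in months (x axis), 1 panel per gene and a bar at the median of each age. In the panels of Mt1, Mt2, Foxo1, Trim63, Glul and Cxcl13 most points of 26 and 28 months stand above all earlier ones. In that of Dkk3 most stand below. For Nmrk2 and Josd2 the medians of 26 and 28 months are lower, but many points overlap with those of 22 and 24 months. The Mt1 medians are 13.2, 16.5, 49.4 and 46.5 CPM.

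Decreases were smaller than increases. Nmrk2, a muscle kinase that makes NAD from nicotinamide riboside, was at 24.8 to 178 CPM (median 81.0) in the early and at 2.96 to 102 CPM (median 26.9) in the sarcopenic mice. Its age medians were 94.8, 79.3, 33.6 and 10.4 CPM, and the log2 fold change was -1.38 ± 0.40 (adjusted p = 0.00677), a call that was lost in 11 of the 34 fits with 1 mouse left out, at adjusted p values up to 0.0135. These were the fits without 22 months replicates 4, 6 and 8, 24 months replicates 2 to 4, 26 months replicates 6 and 8, and 28 months replicates 2, 8 and 9. Dkk3, a secreted Dickkopf protein, was at 18.1 to 95.9 CPM (median 38.9) in the early and at 7.64 to 41.0 CPM (median 14.7) in the sarcopenic mice, with 12 of 18 below all early mice and a log2 fold change of -1.30 ± 0.21 (adjusted p = 8.79e-05). Gdf11, a secreted TGF-beta family member, fell by 1.26 on the log2 scale (SE 0.21), with age medians of 32.9, 25.5, 14.8 and 7.06 CPM. Nrep fell by 1.37, Chad, a cartilage and tendon matrix protein, by 1.31, Pde4a, a cAMP phosphodiesterase, by 1.16, Aurka, a mitotic kinase, by 1.10 and Kcng4, a modulatory potassium channel subunit, by 1.10.

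The lower genes with the smallest p values were more even between mice. Josd2, a deubiquitinase, was at 17.3 to 24.6 CPM in the early and at 15.2 to 20.7 CPM in the sarcopenic mice, and all 18 were below the early median of 22.4 CPM. Its log2 fold change was -0.32 ± 0.05 (adjusted p = 5.12e-05). Tiam1, an activator of the GTPase Rac, was at 7.93 to 22.3 CPM in the early and at 2.51 to 11.5 CPM in the sarcopenic mice, 14 of which were below all early ones, with a log2 fold change of -1.09 ± 0.15 (adjusted p = 4.41e-05). Traf2, an adaptor of TNF receptor signaling, had a log2 fold change of -0.47 ± 0.07 with 14 of 18 sarcopenic mice below all early ones. Amigo1, an adhesion protein, had -0.49 ± 0.07, and Pcdh12, a protocadherin of endothelium, -1.01 ± 0.15.

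Of 15 tested genes that are known to rise in denervated muscle, 7 were called higher and 0 lower (median 0.38), and 14 had a positive log2 fold change. The list held 17 genes. The receptor subunit Chrng did not pass the filter on low counts, and Myh3 was not analysed here. Sln, sarcolipin, an inhibitor of the calcium pump, was at 4.25 to 45.4 CPM (median 8.11) in the early and at 9.77 to 85.1 CPM (median 43.0) in the sarcopenic mice, and all 18 were above the early median. It rose by 1.75 ± 0.28 (adjusted p = 8.29e-05). Gadd45a, a growth arrest gene, rose by 1.29, the transcription factor Runx1 by 0.92 and the adhesion molecule Ncam1 by 0.38. Myog and Hdac4, at 0.64 and 0.37, were not called (adjusted p = 0.0488 and 0.0402). At the neuromuscular junction, 3 of 14 tested genes were called higher and 1 lower, with a median of 0.03 that came to -0.00 with upper-quartile scaling. The share called, 28.6%, was near the 26.1% of all genes. Musk, the kinase that organizes the junction, rose by 0.84 ± 0.16, from 46.0 to 82.6 CPM in the early mice to 53.5 to 275 CPM in the sarcopenic mice. Among receptor subunits, Chrnb1 rose by 0.53 ± 0.09, and Chrna1 had a log2 fold change of 0.37 ± 0.11 (adjusted p = 0.00969), a call lost in 23 of 34 fits with 1 mouse left out at adjusted p values up to 0.0185 and with mice of all 4 ages. Chrnd (0.19) and Chrne (-0.10) were not called, and Rapsn, which clusters the receptor, was lower at -0.21.

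Contractile and calcium genes changed in both directions. The list of muscle fiber identity had 4 genes called higher and 1 lower of 14 (median 0.02). The higher ones were giant or cytoskeletal proteins of the sarcomere and membrane, namely Ttn (0.74 ± 0.13), Neb (0.70 ± 0.15), Dmd (0.54) and Actn2 (0.46), and the lower one was the light chain Myl1 (-0.38). Of 15 fast fiber genes, 1 was higher and 5 were lower. Myh1, the IIX myosin heavy chain, had 0.46 ± 0.14, a call lost with upper-quartile scaling and in 18 of the 34 fits with 1 mouse left out. Casq1, the calcium store protein of fast fibers, was at 2077 to 3222 CPM in the early and at 379 to 2849 CPM in the sarcopenic mice, with a log2 fold change of -0.59 ± 0.15 (adjusted p = 0.00322). Pgam2, a muscle glycolytic enzyme, had -0.49, Pvalb, the calcium buffer parvalbumin, -0.36 and Tnnc2, fast troponin C, -0.24. The count of lower fast genes was 3 in place of 5 in 15 of the 34 fits with 1 mouse left out, from all 4 ages. None of 11 slow fiber genes was called (edgeR, median 0.19). Among 18 genes of calcium handling 1 was higher and 4 were lower (4 and 4 without 28 months replicate 2, 7 lower without 28 months replicate 3). The share called, 27.8%, was near the 26.1% of all genes. Mrln, the calcium pump inhibitor myoregulin, was lower by -0.57 ± 0.09, with all 18 sarcopenic mice below the early median, and Jph2, which joins the tubule to the calcium store, by -0.56.

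Many nuclear genes of complex I, the entry point of the respiratory chain, were lower by small amounts. Of 36 tested complex I genes, 18 were called lower and 0 higher, 35 had a negative log2 fold change, and the median was -0.25. Ndufc1 was at 99.6 to 143 CPM (median 126) in the early and at 65.0 to 121 CPM (median 94.0) in the sarcopenic mice. All 18 sarcopenic mice were below the early median, and the log2 fold change was -0.39 ± 0.07 (adjusted p = 0.000264). The number of complex I calls was 10 without 24 months replicate 3, 11 without 26 months replicate 1 and 14 without 28 months replicate 2. Complexes II to V had 6 of 42 genes called lower, a share close to the 11.2% of all genes, and a median of -0.19. That count was between 2 (without 24 months replicate 3) and 20 (without 28 months replicate 3), and 22 of the 34 mice moved it by more than 1.5 times when left out. Cox8b, a muscle form of a cytochrome oxidase subunit, had -0.37 ± 0.09. Of 78 genes listed under the mitochondrial ribosome, 26 were lower and 0 higher (median -0.15), Mrpl36 (-0.30) among them. Mrps36 (-0.34) was counted there by its symbol, and its place in that ribosome was not tested. The citrate cycle had 1 lower of 23 (6 without 28 months replicate 3), glycolysis 1 lower of 22 and fatty acid oxidation 1 higher of 23, with medians of -0.12, -0.08 and -0.11. Ppargc1a, a coactivator that drives mitochondrial genes, was at 35.5 to 105 CPM (median 61.2) in the early and at 45.7 to 402 CPM (median 85.8) in the sarcopenic mice, a log2 fold change of 0.98 ± 0.25 (adjusted p = 0.00279), whereas the nuclear receptors Esrra (-0.37, adjusted p = 0.0192) and Ppara (0.47, adjusted p = 0.0219) were not called. Genes of the mitochondrial genome were not analysed here.

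Many genes for making ribosomes and for splicing were higher. Of 27 tested ribosome biogenesis genes, 18 were called higher and 0 lower, with a median of 0.35, and between 18 and 19 were called with 1 mouse left out. Wdr43, a factor of the small subunit, was at 32.3 to 46.1 CPM (median 37.1) in the early and at 37.3 to 90.6 CPM (median 52.6) in the sarcopenic mice. All 18 sarcopenic mice exceeded the early median, and the log2 fold change was 0.60 ± 0.10 (adjusted p = 0.000107). Nop14 rose by 0.49. Proteins of the cytosolic ribosome itself had 1 gene called of 76, Rpl3 at 0.49, with a median of 0.07. The count was 4 without 24 months replicate 8. Among 38 splicing factors, 19 were higher and 0 lower (median 0.17). Sf3b1, a core part of the U2 particle, rose by 0.54 ± 0.10, and Mbnl2, a regulator of muscle splicing, by 0.37 ± 0.07, with 14 of 18 sarcopenic mice above all early ones. Upper-quartile scaling gave 16 higher and 1 lower.

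Some genes of the proteasome and many amino acid transporters were higher. The proteasome had 9 of 33 genes called higher and 0 lower (median 0.15). That share, 27.3%, stood beside 26.1% of all genes called in either direction and 14.9% called higher. Psmd11, a subunit of the regulatory lid, rose by 0.48 ± 0.11, with 9 of 18 sarcopenic mice above all early ones, and Psmd4 rose by 0.37. The count was 4 with upper-quartile scaling and 4 or 5 in 11 of the fits with 1 mouse left out, among them that without 28 months replicate 2. Of 22 amino acid transporters, 9 were higher and 1 lower. Slc7a2, a carrier of arginine and lysine, was at 50.5 to 146 CPM (median 80.2) in the early and at 77.8 to 544 CPM (median 247) in the sarcopenic mice, and rose by 1.53 ± 0.24 (adjusted p = 6.72e-05). Slc43a1 rose by 1.42, Slc7a8 by 0.88, Slc7a6 by 0.61, Slc43a2 by 0.58 and Slc7a5, the light chain of the leucine carrier, by 0.56. Polyamine genes went lower in 3 and higher in 1 of 11 (5 lower without 28 months replicate 3). Amd1, which makes the aminopropyl donor of spermidine, was at 1444 to 4122 CPM (median 2197) in the early and at 315 to 2668 CPM (median 1287) in the sarcopenic mice, a log2 fold change of -0.99 ± 0.21 (adjusted p = 0.000568). Smox, which oxidizes spermine, had -0.80 and Azin1, which frees ornithine decarboxylase, -0.33, whereas Srm, spermidine synthase, rose by 0.33.

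Stress lists moved unequally. Of 19 p53 targets 7 were higher and 1 lower (median 0.17). Besides Sesn1, Trp53inp1 rose by 1.32, Cdkn1a, the cell cycle inhibitor p21, by 1.3, Btg2 by 1.10, Plk2 by 0.80, the receptor Eda2r by 0.57 and Fas by 0.42, and Ei24 was lower at -0.24. The integrated stress response had 4 higher and 0 lower of 16, namely Ppp1r15a (1.02), Asns (0.48), Slc3a2 (0.44) and Atf4 (0.36). Its share called was 25%, beside 26.1% of all genes called in either direction and 14.9% called higher. Heat shock proteins had 1 higher and 3 lower of 20, near the shares of all genes, and no higher and 1 lower without 28 months replicate 2.

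In the IL-6 family and its feedback genes, 7 of 15 tested members were called higher and 0 lower, all 15 had a positive log2 fold change, and the median was 0.60. Il6ra, the ligand-binding receptor, was at 7.04 to 18.4 CPM (median 12.2) in the early and at 8.93 to 154 CPM (median 30.6) in the sarcopenic mice, and 13 of 18 were above all early ones. Its log2 fold change was 1.64 ± 0.27 (adjusted p = 9.34e-05). Il6st, the shared signaling chain, rose by 0.36, Lifr by 0.30 and Osmr by 0.60. Downstream, Stat3 rose by 0.64, the kinase Pim1 by 1.22 and Myc by 1.16 ± 0.19, while Socs3, the feedback inhibitor, stood at 0.95 and was not called (adjusted p = 0.0184).

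Immune genes showed no common direction. Of 15 chemokines, 5 were higher and 0 lower (median 0.02, and -0.12 without 28 months replicate 2), Ccl8 (1.07), Ccl6 (0.96), Ccl9 (0.81) and Cxcl14 (0.32) beside Cxcl13. In complement 3 of 18 were higher, a share near the 14.9% of all genes, among them C4b by 0.76 ± 0.14 and C4a by 0.63. C4a and C4b are near-identical copies whose reads the counting may split. The list of MHC and antigen presentation had 2 lower of 19 (median -0.25), a share near the 11.2% of all genes, H2-DMb1 (-0.51) and H2-DMa (-0.40), and that of interferon-stimulated genes 4 lower of 25 (median -0.19), among them Ifit3b (-0.81), Bst2 (-0.38) and Ifi27 (-0.26). For the interferon list the share was 16%, beside 11.2% of all genes called lower. Without 28 months replicate 3 the MHC and interferon counts were 5 and 7. The MHC count was 4 without 26 months replicate 6, and the interferon count was 2 without 22 months replicate 5, 22 months replicate 6 or 24 months replicate 2.

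Of 13 tested macrophage markers, 4 were called higher and 0 lower, with a median of 0.28: Cd163, a hemoglobin scavenger receptor (18.3 to 38.2 CPM in the early and 24.7 to 91.4 CPM in the sarcopenic mice, log2 fold change 0.86 ± 0.15), Lyve1 (0.69 ± 0.14), Cd14 (0.68) and Mrc1 (0.44). The other 9 were not called, with log2 fold changes from -0.30 (Folr2) to 0.39 (F13a1) and Adgre1 at -0.02, Cd68 at 0.10 and Csf1r at 0.19. For the macrophage list the share called was 30.8%, beside 26.1% of all genes called in either direction and 14.9% called higher. Only 2 of the 13 were called without 28 months replicate 2, and likewise 2 without 22 months replicate 6, 22 months replicate 8, 24 months replicate 3, 24 months replicate 4 or 26 months replicate 3, or with upper-quartile scaling. The summed level of the macrophage list was 168 to 413 TPM in the early and 226 to 766 TPM in the sarcopenic mice, highest in 28 months replicate 2. In whole muscle, more or fewer cells of a type and more or less RNA per cell cannot be told apart. T cell markers were close to 0 in both phases, with sums of 0.833 to 2.88 and 0.893 to 2.90 TPM, and none passed the filter on low counts. Of the 8 B and plasma cell markers in the table, 2 passed it and were not called, Xbp1 (0.24) and Jchain (0.35), while others such as Cd79a and Ms4a1 were too low to be tested. The summed level of that list was 73.5 to 112 TPM in the early and 80.03 to 182 TPM in the sarcopenic mice, again highest in 28 months replicate 2.

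Many matrix genes fell. Of 19 tested collagens, 10 were called lower and 0 higher, 18 had a negative log2 fold change, and the median was -0.58. Col1a1, the main fibrillar collagen, was at 15.9 to 112 CPM (median 49.9) in the early and at 4.64 to 54.3 CPM (median 27.5) in the sarcopenic mice, a log2 fold change of -1.02 ± 0.26 (adjusted p = 0.00283), and Col3a1 had -1.0. Col6a2, of the microfibrils around fibers, was at 21.9 to 71.2 CPM in the early and at 7.31 to 36.6 CPM in the sarcopenic mice. Here all 18 sarcopenic mice were below the early median of 44.2 CPM, and the log2 fold change was -0.96 ± 0.17 (adjusted p = 0.000125). Matrix proteases and inhibitors showed no common direction, with 1 called higher and 4 lower of 18 and a median of -0.02. The share called, 27.8%, was near the 26.1% of all genes. The lower ones were the collagen chaperone Serpinh1 (-0.67), the membrane protease Mmp15 (-0.59), the plasmin-forming protease Plat (-0.49) and the inhibitor Timp2 (-0.31). Small leucine-rich proteoglycans, which shape collagen fibrils, had 5 lower and 0 higher of 13 (median -0.36). Kera, keratocan, fell from 1.42 to 11.7 CPM in the early mice to 0.213 to 5.55 CPM in the sarcopenic mice, by 1.42 on the log2 scale, and Fmod by 0.58.

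Many markers of fibroblasts and tenocytes, the cells that make this matrix, were lower. These lists share genes with those above, among them Col1a1, Col3a1, Kera and Fmod, and so are not separate results. The fibroblast list had 6 lower and 0 higher of 11 (median -0.36), and its sum was 1380 to 2524 TPM in the early and 1375 to 2157 TPM in the sarcopenic mice. Besides the collagens Col1a1 and Col3a1, Pi16 (-0.67), Clec3b (-0.61), Dpt (-0.59) and Gsn (-0.27) were lower. Pdgfra, Dcn, Lum, Smoc2 and Mfap5 were not called, though all 11 had a negative log2 fold change. The tenocyte list had 4 lower and 0 higher of 7 (median -0.58, 2 called without 24 months replicate 7), namely Kera, Tnmd, tenomodulin (-0.90 ± 0.25), Comp (-0.70) and Fmod. The tendon factor Scx stood at -0.42 and was not called (adjusted p = 0.0141). The tenocyte sum was 133 to 299 TPM in the early and 88.0 to 259 TPM in the sarcopenic mice. Whether the amount of tendon in the sample differed between mice was not tested. Of the other cell types, endothelial genes had 2 higher and 1 lower of 10, Schwann cell genes 0 of 11 called, erythroid genes 0 of 5, neutrophil and mast cell genes 0 of 7, pericyte and smooth muscle genes 1 higher of 10, and satellite cell genes 1 higher and 1 lower of 8 (edgeR for all of these). The endothelial and satellite cell shares called, 30% and 25%, were near the 26.1% of all genes. Without 28 months replicate 2 the satellite cell list had no call in either direction. The adipocyte list had 1 lower of 9, Lep, the fat hormone leptin, at 0.522 to 9.5 CPM in the early and 0 to 1.73 CPM in the sarcopenic mice (log2 fold change -2.06 ± 0.42).

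**Figure D3:**
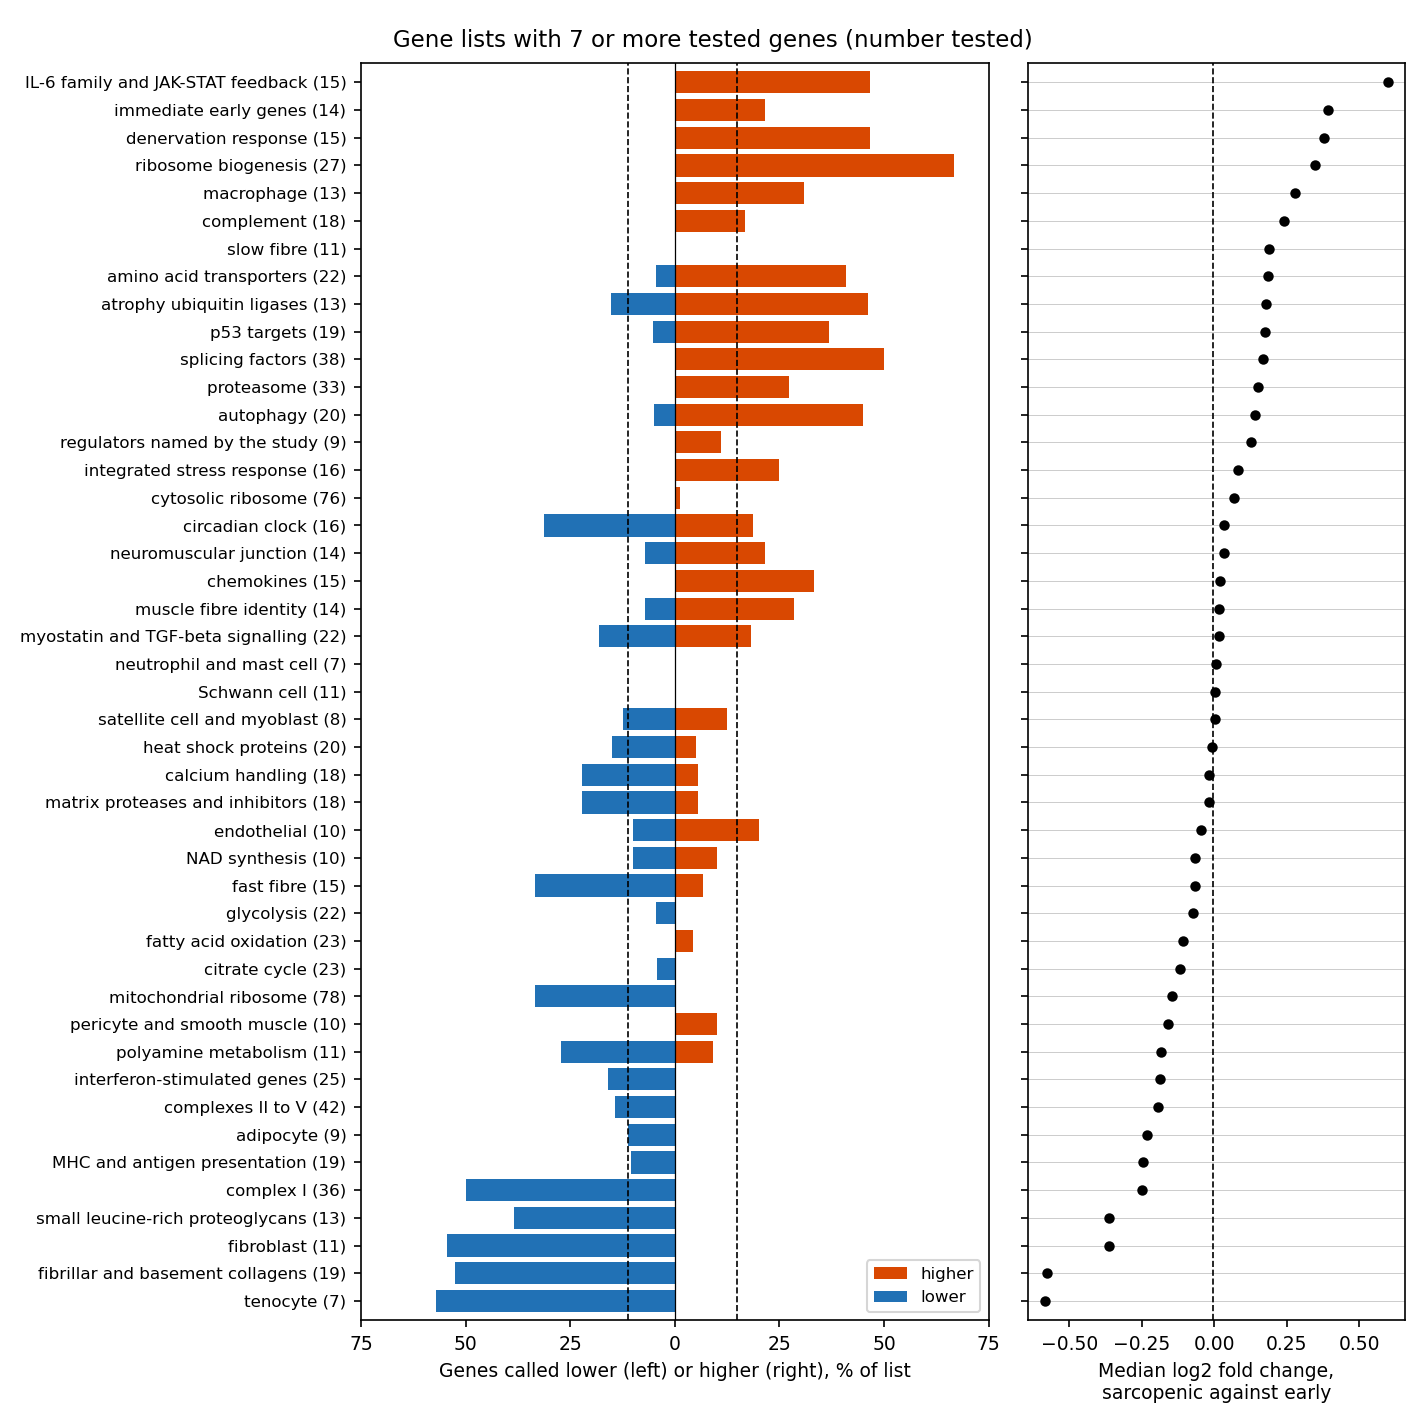
Share of the tested genes of each list that was called lower or higher in the sarcopenic mice (left panel, percent, with dashed lines at 11.2% and 14.9% for all genes) and the median log2 fold change of the list (right panel). Ribosome biogenesis (18 of 27 higher) and complex I (18 of 36 lower) reach well past the dashed lines, while slow fiber and Schwann cell genes have no call.

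Signals of the myostatin and TGF-beta pathway had 4 called in each direction among 22, or 36.4% called beside 26.1% of all genes. The type I receptors Acvr1b (0.79 ± 0.14, 68.2 to 235 CPM in the sarcopenic against 47.8 to 106 CPM in the early mice) and Tgfbr1 (0.47), the co-receptor Tgfbr3 (0.42) and the shared mediator Smad4 (0.24) were higher. The ligand Tgfb3 (-0.28), the receptor Acvr1 (-0.34) and the binding protein Fstl1 (-0.46) were lower, as was Gdf11. Clock genes had 3 higher and 5 lower of 16. Dbp, a transcription factor at the output of the clock, was at 50.4 to 118 CPM (median 93.2) in the early and at 5.60 to 95.0 CPM (median 33.1) in the sarcopenic mice, 12 of which were below all early ones, with a log2 fold change of -1.18 ± 0.27 (adjusted p = 0.0011). Hlf, a factor of the same family (-0.63), and the repressors Bhlhe41 (-0.77), Nr1d1 (-0.64) and Ciart (-0.67) were lower as well. Nfil3, which opposes Dbp at shared sites, rose by 1.68, Cry2 by 1.09 ± 0.19 and Per1 by 0.55. The hour at which each muscle was taken is not given in the sources used here, and its part in these values was not tested.

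The phase difference was then read in 2 sets that share no mouse. Between 26 and 22 months, 305 of 12072 genes were called (2.53%), 203 higher and 102 lower, and between 28 and 24 months 1 of 12051 (0.0083%), the gene 6430548M08Rik with a log2 fold change of 0.93 (adjusted p = 0.00367). At an unadjusted p below 0.05 there were 3908 and 4404 genes, at an adjusted p below 0.05 1830 and 1908, and DESeq2 called 986 and 783. The edgeR counts at FDR 0.01 also moved when 1 mouse was left out. The first was 53 to 187 without 1 of 22 months replicates 2 to 8 or 26 months replicates 1, 3 and 8, and 630 without 26 months replicate 7. The second was 829 without 28 months replicate 3, 16 without replicate 4, 11 without replicate 6, and at most 4 without any other mouse. In spite of the unequal counts, the log2 fold changes ran alike: across 11968 genes tested in both sets the Pearson correlation was 0.83, 83.4% had the same sign, and so did 98.7% of the genes called in the first set. Genes are not independent of each other, so no p is given. The values of named genes are given as a description, since they were named for their change in the same mice. Mt2 had log2 fold changes of 2.58 and 3.21 in the 2 sets, Foxo1 of 2.02 and 1.60, Trim63 of 2.12 and 1.75, Glul of 2.05 and 1.34, Cxcl13 of 3.91 and 3.46, Dkk3 of -0.97 and -1.62 and Nmrk2 of -1.36 and -1.39. When the older ages were exchanged, 26 against 24 months gave 4 calls (Tbc1d1, Mt2, Mt1 and Irf2bp2) and 28 against 22 months 1859, with a correlation of 0.72 across genes.

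**Figure D4:**
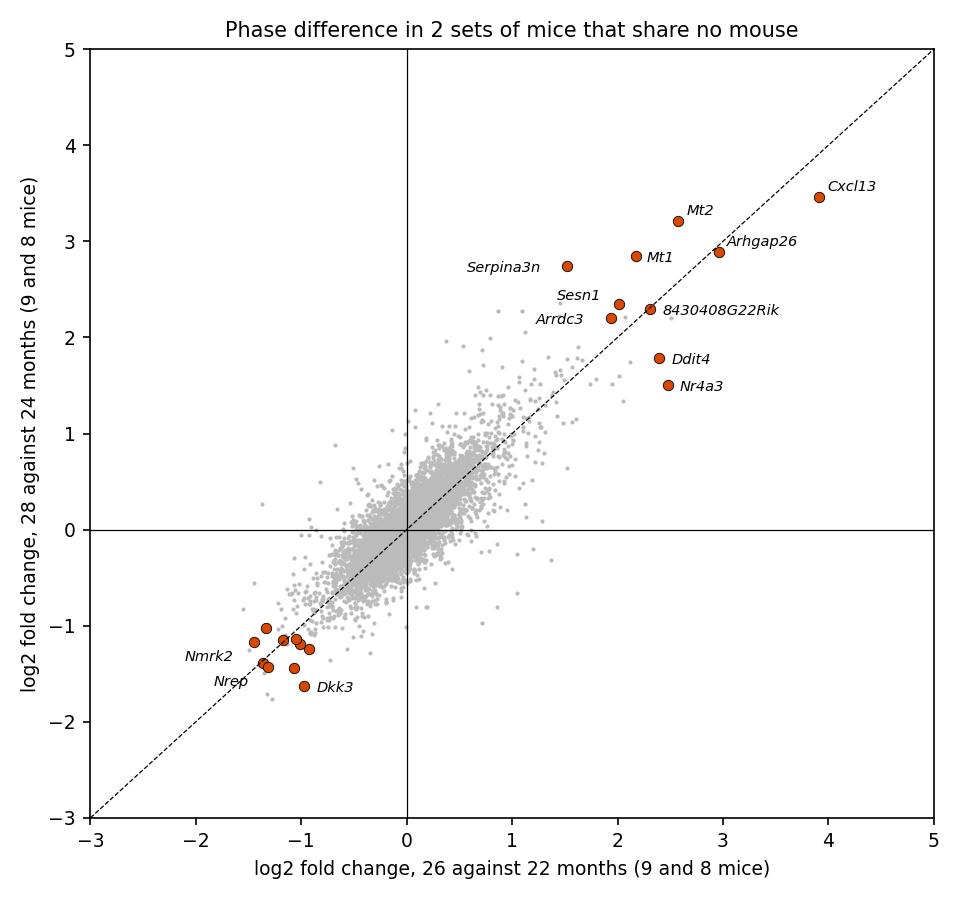
Log2 fold change of each gene between 26 and 22 months (x axis) and between 28 and 24 months (y axis), with all genes tested in both sets in grey and the 10 largest increases and 10 largest decreases of the phase comparison in orange. The cloud runs along the diagonal (Pearson correlation 0.83 across 11968 genes), and Mt2 lies at 2.58 and 3.21.

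The 2-month steps were also read singly, each with 8 or 9 mice per age, fewer than in the phase contrast. Calls per step therefore cannot show where the phase difference arose. In the fit over the 4 ages, edgeR called 0 genes between 24 and 22, 26 and 24, or 28 and 26 months, with 460, 1979 and 1527 genes at an unadjusted p below 0.05. DESeq2 called 0, 2 and 0, the 2 being Pcdh12 (-1.07) and Tbc1d1 (0.89) between 26 and 24 months. Neither the contrast of the last step against the first (218 genes at an unadjusted p below 0.05) nor the departure of the middle step from an even course (485 genes) gave a call in edgeR. The counts of 460, 218 and 485 were each below a share of 0.05 of the 12412 genes, the share expected with no difference. Over the genes called between phases, the median step in the direction of the phase difference was 0.09, 0.23 and 0.15 from the first to the last, a description only, since the same mice chose the genes and the phase contrast weighs the middle step most. Gene groups took different courses in their medians. Relative to 22 months, the collagen median was at -0.27, -0.62 and -0.72 at 24, 26 and 28 months, and complex I at -0.06, -0.17 and -0.37. The IL-6 family was at 0.04, 0.32 and 0.79, ribosome biogenesis at 0.05, 0.30 and 0.41, and the denervation list at 0.31, 0.42 and 0.76. Single genes show the same variety in their median CPM. Mt1 and Dbp had nearly the same medians at 26 and 28 months, whereas Sesn1, Egln3 and Amd1 moved further, Amd1 from 1414 to 653 CPM. Fitted values can differ from such medians. Mt1 ranged from 9.18 to 543 CPM at 28 months, and the median fitted step of the 3 tested metallothioneins from 26 to 28 months was 1.05. Differences between such courses were not called in any gene.

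**Figure D5:**
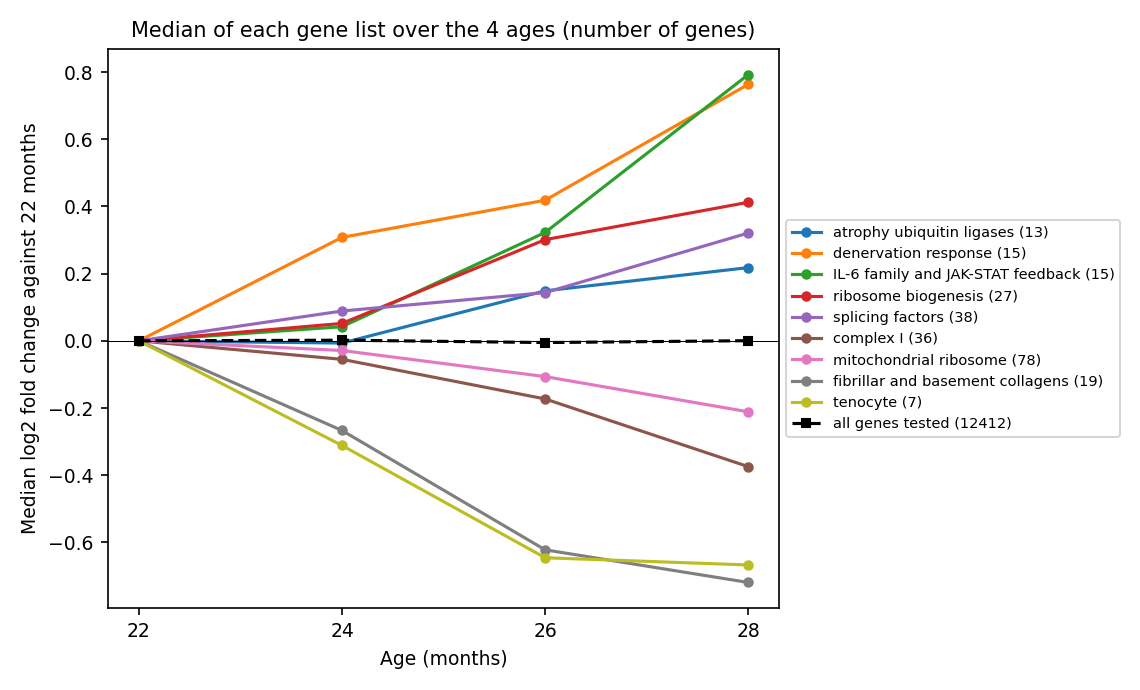
Median log2 fold change of 9 gene lists and of all tested genes (y axis) relative to 22 months, by age in months (x axis). All genes stay at 0.00, -0.01 and 0.00, while the IL-6 family reaches 0.79 and the collagens -0.72 at 28 months.

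The sarcopenic mice differed more among themselves. Measured from the median of their own age on PC1, mice lay 14.98 units away on average in the sarcopenic phase and 3.73 units in the early sarcopenic phase, a difference of 11.3 (two-sided permutation test, p = 0.00123), and 9.88 without 28 months replicate 2. The SD of log2(CPM + 1) within age was larger in the sarcopenic phase for 74.8% of genes, and for 70.4% of the 9174 genes that were not called. Its median over genes was 0.175, 0.174, 0.210 and 0.239 at 22, 24, 26 and 28 months. At 28 months the range was widest: replicate 2 had a PC1 coordinate of 58.3, replicate 1 of 39.5 and replicate 5 of 36.6, while replicate 3 was at -14.6, among the early sarcopenic mice. Named genes did not all follow the PC1 order of these mice. In replicates 3 and 4 of 28 months Foxo1 was at 45.1 and 37.0 CPM, Trim63 at 65.6 and 115 CPM and Nmrk2 at 87.7 and 102 CPM, all within the range of the early sarcopenic mice, as were their metallothionein levels. Dkk3, at 7.64 and 14.3 CPM in the same mice, was below every early sarcopenic mouse, and so was Josd2 in replicate 3 at 17.21 CPM. Without replicate 3 the number of genes called between phases was 3905.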

How the data were processed

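Gastrocnemius RNA was sequenced from 50 mice, and 34 were used here, grouped by the age in the labels. According to the methods and the submitters' processing notes, the authors trimmed reads with cutadapt 1.9.1 and assigned them with kallisto 0.43.1, using the strand, to protein-coding transcripts of GRCm38, dividing a read that fits several transcripts evenly among them. The deposited counts are sums over the transcripts of a gene without normalization, and the deposited TPM values were scaled by the authors to transcript length and library size. The tables held 23880 genes, 2107 of them without a count in these mice, and 2.03% of values had no count although their TPM was above 0. Genes of the mitochondrial genome were not analysed here.

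Counts were fitted with edgeR 4.0.16 under R 4.3.3, with 1 group per age, TMM scaling and the quasi-likelihood test. Genes reaching 1 CPM in 8 or more of the 34 mice were kept, p values were adjusted after Benjamini and Hochberg, and the threshold was FDR 0.01. The standard error was the fold change divided by the root of F. The phase contrast was the mean of 26 and 28 months minus that of 22 and 24 months. PCA used log2(TPM + 1) over genes reaching 1 TPM in 8 or more mice. Single values were compared with two-sided permutation tests (100000 permutations). DESeq2 1.42.0, limma 3.58.1 on log2(TPM + 1) or log2(TPM + 0.1), edgeR's likelihood ratio test, other scalings and filters, a replicate block and leaving out each mouse were alternatives. The procedure was tested on simulated data. Promoters came from RefSeq and gene positions from GENCODE, both on GRCm38. Genes were named by rule: the 10 largest called changes in each direction with a mean of at least 5 CPM, the 5 smallest p values in each direction, up to 2 called genes of each list with the smallest p, metallothioneins, receptor subunits, regulators and cell type markers; other called members of a list were named after their values were seen. The members and lists were chosen with earlier results of these data known, so counts over lists are descriptions. A few single genes are not reported here.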

Additional observations from a re-analysis of the deposited data

Results flagged for a closer look

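Within each age, the highest and lowest mouse were compared with the others for PC1, the total counts and 29 of the named genes, 124 sets in all, and 7 stood apart by the gap to the nearest mouse (above 0.526 of the range for 8 mice or 0.493 for 9). About 1 set in 20 does so by chance. The PC1 coordinate of 22 months replicate 1 was -6.941, with the others between -23.48 and -16.45. Total counts of 28 months replicate 2 were 1.744e+07, with the others between 1.54e+07 and 1.635e+07. On the log2(CPM + 1) scale, Cxcl13 was at 2.328 in 22 months replicate 2 (others 0.957 to 1.476), and Arhgap26 at 4.201 in 22 months replicate 1 (others 2.396 to 3.159). Serpina3n and Egln3 were highest in 24 months replicate 1, at 3.859 (others 2.484 to 3.088) and 6.558 (others 5.729 to 6.098). Amigo1 was lowest in 24 months replicate 8, at 5.354 (others 5.739 to 5.962). No gene was called for a difference between the steps within the 2 phases (edgeR, with 218 of 12412 genes at an unadjusted p below 0.05, less than the share of 0.05 expected with no difference).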

How the results depend on the processing

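The count of genes called between phases was 2667 to 3603 under the other scalings, filters, fits and tests, 5244 at FDR 0.05, and 2677 to 3905 with 1 mouse left out. No gene called between phases changed sign with a mouse left out. Of the 110 named genes, 99 were called, 88 of them in every fit with 1 mouse left out and 88 under every other alternative, and none changed sign. Of 249 called list members, 185 were called in every fit with 1 mouse left out and 47 lost their call in more than 5 of the 34, among them Pvalb (22), Cxcl14 (20), Bst2 (19), Fbxo30 (18), Tnnc2 (17), Slc43a2 (14), Cd14 (13), Gsn (12), Atf4 (11), Comp (11), Mrc1 (7) and Smad4 (7). The PC1 difference (25.56 to 29.36 with 1 mouse left out) and the spread difference (9.88 to 12.1) kept their calls, and total counts differed by -546135 to -113719. The 26 against 22 months count was 986 with DESeq2, 159 with limma on log2(TPM + 1), 1830 at FDR 0.05, 4 with 24 in place of 22 months, and 53 to 630 with 1 mouse left out. The 28 against 24 months count was 2 with DESeq2 size factors in edgeR, with upper-quartile factors or without the filter, 783 with DESeq2, 4 with limma, 1908 at FDR 0.05, 1859 with 22 in place of 24 months, and 0 to 829 with 1 mouse left out. Between 26 and 24 months DESeq2 called 2 genes. With 1 mouse left out, the steps from 24 to 26 and from 26 to 28 months had 0 to 1 calls and the other contrasts of the 4 ages 0. FDR 0.05 was planned for the phase comparison and added for the others after seeing the data. The cause of these differences was not tested.

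Replicate numbers are shared between ages, but nothing states that they pair mice. Of 49 same-numbered pairs, 27 had a correlation of deviations above 0.1 (range -0.42 to 0.43), and 8 of 34 mice correlated best with one of their number. The median correlation was 0.12 for same-numbered pairs and -0.02 for pairs of other numbers, a difference that was not tested. With the replicate number as a block, 3386 genes were called between phases (3035 shared with the fit without it), 176 between 26 and 22 months and 0 between 28 and 24 months. Precision is set by 8 or 9 mice per age, and genes under 1 CPM, such as lymphocyte markers, could not be tested.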

Other observations

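The mouse numbered replicate 1 had the highest PC1 coordinate at 22, 24 and 26 months and the second highest at 28 months, a pattern chosen after the values were seen; what the numbers stand for is not given in the sources used here. Of the 14 tested immediate early genes, 3 were called higher between phases and 0 lower (median 0.39, and 5 without 28 months replicate 3 or 4), with Fosl2 at 1.29 and Klf6 at 0.87. That share, 21.4%, stood beside 26.1% of all genes called in either direction and 14.9% called higher.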
